A study of Homo sapiens with 6 samples.

Results

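The genes described here are 44 of the 17471 listed in the expression table: 33 genes for collagen chains, chosen by their symbols with the basement membrane collagens (COL4A1 to COL4A6 and COL18A1) left out, and 11 genes for the enzymes and the chaperone that modify, fold and cross-link collagen. LOXL4, which the choice also names, was not among the genes listed under that symbol and was not analysed here. The study knocked down PAX2, a paired-box transcription factor of the Müllerian duct and endometrial gland epithelium, in the established endometrial cancer line AN3CA, of human origin, and measured RNA by total RNA sequencing. Both groups were AN3CA cells carrying a pGFP-C-shLenti lentiviral construct and selected with puromycin. The control group, shEV, carried the empty vector and is labelled wild type (3 libraries, although the study's text names a scrambled hairpin as the AN3CA control of other assays), and the knockdown group, shPAX2, carried a hairpin against PAX2 and is labelled PAX2 KD (3 libraries). The line is a single model, the labels tell no separate hairpins apart among the shPAX2 libraries, and they do not say whether the libraries came from separate cultures, so every p-value measures only the spread between these libraries.

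Fibrillar collagens are built from chains wound around each other into a rope-like triple helix, secreted with end extensions that are trimmed outside the cell, and laid down as banded fibrils. Type I collagen is normally a pairing of more α1 (COL1A1) than α2 (COL1A2) chain, type III is made of COL3A1 alone, and type V (COL5A1 with COL5A2) starts fibrils and limits their width. Inside the cell, prolyl hydroxylases stabilise the helix, lysyl hydroxylases prepare cross-link sites and SERPINH1 (HSP47) holds the finished helix, and outside it lysyl oxidases join the molecules together. In the endometrium these matrix genes are mainly a product of stromal cells.

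Levels are given as TPM, a transcript abundance scaled per length and to the same total in every library. The table let whole read numbers be recovered for every gene, as the smallest that fit its TPM ratios. A factor shared by all counts of a gene is lost in this, so a gene with few reads may have had more. The recovered reads summed to 10730909 to 18221859 in the shEV libraries and to 19422615 to 29405787 in the shPAX2 libraries. PAX2 itself stood at 4.03, 3.66 and 2.74 TPM in shEV and at 0.916, 0.723 and 1.17 TPM in shPAX2, so the mean of the knockdown libraries was 26.9% of the control mean (log2 fold change -1.47 ± 0.18 SE, adjusted p = 0.000294, limma). The labels call the cells epithelial, yet of 7 epithelial markers only KRT18 stood above 1 TPM (10.2 to 17.5 TPM over the 6 libraries), while EPCAM did not pass 0.387 TPM and CDH1 did not pass 0.0851 TPM. The endothelial markers summed to no more than 0.0611 TPM in any library and the immune markers to no more than 2.45 TPM, nearly all of it CD68, which was higher in shPAX2 (log2 fold change 0.59, adjusted p = 0.0359, limma), a call lost without the filter (0.0608) and without shEV replicate 1 (0.065), shEV replicate 3 (0.115), shPAX2 replicate 2 (0.128) or shPAX2 replicate 3 (0.101). Of 8 fibroblast and stromal markers chosen, 6 were listed in the table. Of these, THY1 did not pass 0.0924 TPM and FAP did not pass 0.0398 TPM. The fibroblast receptor PDGFRA was at 0.219 to 0.31 TPM in shEV and 0.0497 to 0.0935 TPM in shPAX2, below the filter. PDGFRB was at 0.99 to 1.08 TPM in shEV and 0.664 to 0.755 TPM in shPAX2 (adjusted p = 0.104, limma). Both had every knockdown library below every control. PDGFRB did pass without the filter (adjusted p = 0.0454, limma) and without trend or robust moderation (adjusted p = 0.00716, limma). ACTA2, smooth muscle actin, and TAGLN were higher in shPAX2 (log2 fold changes 2.16 and 1.05, adjusted p = 0.000824 and 0.000746, limma). The summed level of the list, most of it ACTA2, was 63.1 to 81.6 TPM in shEV and 231 to 363 TPM in shPAX2. The part of these marker differences in the collagen results was not tested.

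Of the 44 genes, 21 passed the filter on low values (0.5 TPM or more in at least 3 libraries) and entered the test, 12 collagen chains and 9 modifying genes. Of these, 19 reached 0.5 TPM in all 6 libraries, while COL9A3 did so in 4 and P4HA3 in 3. The test was limma on log2(TPM + 0.5), with p-values adjusted over all 13163 genes tested, and log2 fold changes are shPAX2 minus shEV on that scale. The limit for the adjusted p was 0.05, and a change of at least 1 in size on the log2 scale was the further limit for a large change. COL3A1 and COL26A1 were higher past both limits, 2 genes of the 21, where 1.43% of all genes tested were. COL1A2, COL5A1 and PLOD2 were lower past both limits, 3 of the 21, where 3.11% of all genes tested were. By the adjusted p alone 2 were higher and 9 lower, against 12.2% and 30.5% of all genes tested, so that lower calls outnumbered higher ones here as they did in the table as a whole. Among the 21, 12 had groups that lay wholly apart, 2 higher and 10 lower in shPAX2, against 15.9% and 39.0% of all genes tested. The median log2 fold change was -0.28 for the 21 genes, -0.39 for the 12 chains and 0.0016 for the 9 modifying genes, and it was -0.10 for all genes tested. That median of all genes moved to 0.0053 when the libraries were rescaled by the median of their gene ratios, and then 3 of the 21 were higher and 7 lower by the adjusted p, with 52.6% of all calls in the table being higher in place of 28.6%.

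**Figure D1:**
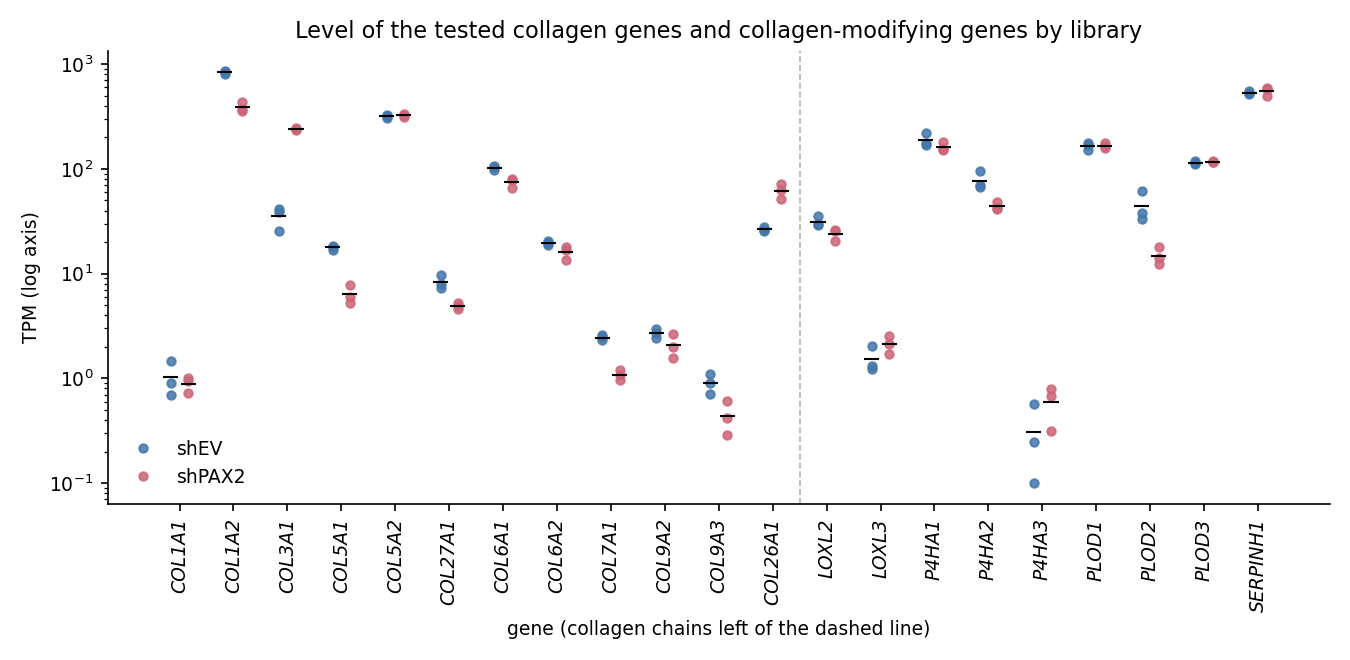
Level of the 21 tested genes in TPM (log axis), with one point for each of the 3 shEV libraries (blue) and the 3 shPAX2 libraries (red) and a black line at each group mean. COL3A1 rises from 25.8 to 41.2 TPM in shEV to 236 to 248 TPM in shPAX2, COL1A2 falls, and COL5A2 and SERPINH1 overlap between the groups.

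RefSeq promoter entries (GRCh38.p14, 250 bases before to 50 after the start) were at hand for 13 of the 21 tested genes. Upstream stretches of 150 bases, ending at the base before the start, are shown for 4 genes that passed the test, COL26A1 (higher) and COL5A1, COL7A1 and PLOD2 (lower), so that genes that moved together and one that moved the other way can be compared. They lie at chr7:101362725-101362874 (plus strand) for COL26A1, chr9:134641653-134641802 (plus) for COL5A1, chr3:48595330-48595479 (minus) for COL7A1 and chr3:146161185-146161334 (minus) for PLOD2. Each is written 5′ to 3′ on the strand of its gene, and capitals mark any match on either strand to the motifs searched. These were CCAAT, known as a binding motif of nuclear factor Y, and TATAAA, the core promoter motif. GGGCGG, the motif bound by SP1, was searched as well. The paired-box core was searched in its forms GTCACGC and GTCATGC. No motif overlapped another in the 4 stretches, and positions give the first base of a match, with -1 the base before the start.
COL26A1: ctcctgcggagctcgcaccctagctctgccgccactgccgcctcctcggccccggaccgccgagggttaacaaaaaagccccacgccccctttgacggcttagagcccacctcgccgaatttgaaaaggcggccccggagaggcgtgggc
COL5A1: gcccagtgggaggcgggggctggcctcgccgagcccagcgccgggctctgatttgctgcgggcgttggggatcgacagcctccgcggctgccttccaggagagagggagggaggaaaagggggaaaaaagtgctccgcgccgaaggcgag
COL7A1: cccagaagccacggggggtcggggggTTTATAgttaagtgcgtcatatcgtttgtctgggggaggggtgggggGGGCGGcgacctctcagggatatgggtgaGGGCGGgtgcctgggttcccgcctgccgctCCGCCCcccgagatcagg
PLOD2: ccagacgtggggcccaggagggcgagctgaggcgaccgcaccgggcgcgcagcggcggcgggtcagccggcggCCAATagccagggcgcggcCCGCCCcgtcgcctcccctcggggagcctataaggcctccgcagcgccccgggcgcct
No capitals fall in the COL26A1 and COL5A1 stretches, and COL5A1 has GGGCGG matches only farther up, at -230 and -214. COL7A1 holds a TATAAA match at -124 and GGGCGG matches at -77, -48 and -18, and PLOD2 a CCAAT at -77 and a GGGCGG match at -58. Over the 250 upstream bases of the 13 entries (the first listed start of each gene), GGGCGG was present in 8, TATAAA in 3 and CCAAT in 2, where 42.6%, 10.7% and 32.0% of all 35116 promoters held them. Neither paired-box core was present in any of the 13, and 2.2% of all promoters held GTCACGC and 1.43% held GTCATGC. A match is only a run of letters, and its absence from this window says nothing on where PAX2 binds.

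Type III collagen had the largest log2 fold change, in size, of the 21 tested genes. COL3A1 (chr2:189839099-189877472, hg19, plus strand) stood at 25.8, 38.4 and 41.2 TPM in shEV, from 759, 1864 and 2045 reads. In shPAX2 the values were 248, 241 and 236 TPM, on 20848, 17825 and 12638 reads. In RNA from whole cultures, a change in the number of cells of a type cannot be told apart from a change in RNA per cell. The 3 knockdown libraries lay close together and every one was far above every control library, with shEV replicate 1 the lowest of all. The mean rose from 35.1 ± 8.25 to 242 ± 6.14 TPM (SD, n = 3 each), 6.88 times the control mean, with a log2 fold change of 2.79 ± 0.18 SE (95% CI 2.36 to 3.23, adjusted p = 0.000122, limma). Leaving out shEV replicate 1 gave 2.59.

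Type I collagen was measured almost only as its α2 chain. COL1A2 (chr7:94024207-94060539, plus strand) was the most abundant of the chains in every library, at 855, 809 and 845 TPM in shEV and 439, 370 and 360 TPM in shPAX2. The groups did not overlap, and shPAX2 replicate 1 was the highest of the knockdown libraries. The mean of the knockdown libraries was 46.6% of the control mean (log2 fold change -1.11 ± 0.08 SE, adjusted p = 1.75e-05, limma), and after median-of-ratios rescaling the change was -0.99, just short of the limit for a large change. COL1A1 (chr17:48261462-48278993, minus strand), the α1 chain, stood at 1.48, 0.897 and 0.691 TPM in shEV and at 0.728, 1.0 and 0.934 TPM in shPAX2, from 37 to 80 reads a library. Its groups overlapped and its log2 fold change of -0.11 did not pass the test (95% CI -0.58 to 0.37, adjusted p = 0.717, limma), and it changed sign to 0.10 without shEV replicate 1 and to 0.13 under quantile normalization. The level of COL1A2 was 579 to 1222 times that of COL1A1 in the shEV libraries and 369 to 603 times in the shPAX2 libraries, with 37 to 80 COL1A1 reads behind each of these ratios.

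The 2 chains of type V collagen parted. COL5A1 (chr9:137533649-137736689, plus strand) stood at 17.0, 18.5 and 18.0 TPM in shEV and at 7.74, 6.0 and 5.3 TPM in shPAX2. Every knockdown library was below every control library, and the mean was 35.6% of the control mean (log2 fold change -1.44 ± 0.12 SE, 95% CI -1.71 to -1.16, adjusted p = 4.05e-05, limma). COL5A2 (chr2:189896624-190090038, minus strand) stood at 325, 308 and 319 TPM in shEV and at 327, 335 and 314 TPM in shPAX2. Its groups overlapped and the log2 fold change was 0.036 (95% CI -0.09 to 0.16, adjusted p = 0.636, limma). Its sign depended on the scaling, with 0.15 (adjusted p = 0.0475) under median-of-ratios rescaling and -0.012 under quantile normalization. The ratio of COL5A2 to COL5A1 was 16.7 to 19.1 in shEV and 42.2 to 59.3 in shPAX2. Such a ratio does not move when all values of a library are multiplied by 1 factor.

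COL3A1 and COL5A2 are neighbours on chromosome 2, lying end to end on opposite strands with a gap of 19.2 kb, and 1 of the pair was higher past both limits while the other did not pass the test. The ratio of COL3A1 to COL5A2 was 0.0793, 0.125 and 0.129 in shEV and 0.759, 0.718 and 0.751 in shPAX2. The tested genes on either side of the pair, GULP1 and WDR75, had means in shPAX2 at 122% and 113% of the control mean. GULP1 was higher by the adjusted p (log2 fold change 0.29, adjusted p = 0.00381, limma) and WDR75 did not pass (adjusted p = 0.186, limma). Around COL1A2, the nearest tested gene on each side, CASD1 and BET1, had means at 106% and 82.3% of the control mean. BET1 was lower by the adjusted p (log2 fold change -0.27, adjusted p = 0.0204, limma) and CASD1 did not pass (adjusted p = 0.257, limma). The part of these neighbourhoods in the collagen results was not tested.

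COL27A1 was the other fibrillar chain that passed the test, and it makes thin fibrils known best from cartilage. It stood at 7.37, 8.03 and 9.74 TPM in shEV and at 5.24, 4.94 and 4.55 TPM in shPAX2, with no overlap between the groups (log2 fold change -0.71 ± 0.12 SE, adjusted p = 0.00143, limma). COL2A1, COL5A3, COL11A1 and COL24A1 had at most 7 reads in any library, and of these COL2A1 and COL24A1 had no more than 3, which is too few to compare at this depth. COL11A2 had 29 to 88 reads yet only 0.0937 to 0.142 TPM. The length implied by its TPM and reads was 8.97 times that of its annotated exons, relative to the median gene, whereas this factor lay between 0.384 and 1.4 for the others. Its TPM is therefore not comparable with that of other genes. It enters the filter on low values, which it did not pass on that TPM, and the sum of all chains, as one of the minor chains.

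**Figure D2:**
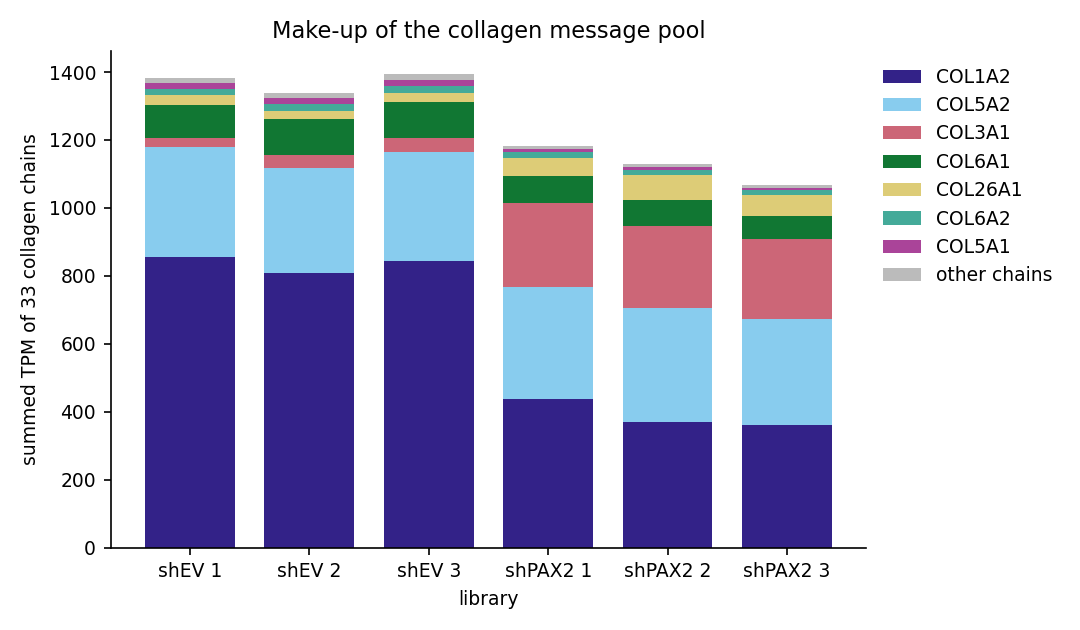
Summed TPM of the 33 collagen chains in each of the 6 libraries, with each bar divided into the 7 most abundant chains and all others. COL1A2 makes up 60.4% to 61.8% of the bar in shEV and 32.7% to 37.1% in shPAX2, and COL3A1 goes from 1.86% to 2.96% to 21.0% to 22.1%.

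The make-up of the collagen messages differed more between the groups than their sum. The 33 chains summed to 1384, 1340 and 1392 TPM in shEV and to 1183, 1130 and 1066 TPM in shPAX2, so all 3 knockdown libraries were below the controls. COL1A2 made up 61.0% ± 0.756 of that sum in shEV and 34.5% ± 2.29 in shPAX2 (SD, n = 3 each). COL3A1 made up 2.56% ± 0.61 and 21.5% ± 0.59, and COL26A1 1.93% ± 0.0652 and 5.52% ± 1.03. COL5A2, whose level overlapped between the groups, went from 23.1% ± 0.297 to 28.9% ± 1.13 of a smaller sum. COL1A2 stood at 20.5 to 33.2 times the level of COL3A1 in shEV and at 1.53 to 1.77 times in shPAX2. These shares were described and not tested.

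Collagen VI forms beaded filaments around cells from 3 different chains. COL6A1 (chr21:47401684-47424964, plus strand) stood at 97.6, 105 and 106 TPM in shEV and at 81.0, 78.9 and 66.0 TPM in shPAX2, with no overlap (log2 fold change -0.45 ± 0.083 SE, adjusted p = 0.00263, limma). COL6A2, its neighbour on chromosome 21, stood at 19.5, 18.6 and 20.4 TPM and at 18.1, 16.8 and 13.4 TPM. Its groups did not overlap either, but the log2 fold change of -0.28 missed the limit (adjusted p = 0.0601, limma), and without shPAX2 replicate 1, the highest knockdown library, it was -0.37 (adjusted p = 0.0223). COL6A1 was 5.0 to 5.65 times COL6A2 in shEV and 4.48 to 4.94 times in shPAX2. COL6A3, the third chain, had 2 to 10 reads a library and at most 0.122 TPM.

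COL7A1 (chr3:48601506-48632762, minus strand) codes for the chain of anchoring fibrils, which tie epithelial basement membranes to the stroma. It stood at 2.46, 2.32 and 2.58 TPM in shEV and at 1.08, 1.2 and 0.961 TPM in shPAX2, from 86 to 214 reads. The groups lay well apart and the knockdown mean was 44% of the control mean (log2 fold change -0.90 ± 0.13 SE, adjusted p = 0.000865, limma). At this low level the pseudocount shrinks the value, which was -1.12 with a pseudocount of 0.1 and -1.15 on the recovered reads, both past the limit for a large change.

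Among the fibril-associated collagens, which decorate fibrils rather than form them, only the collagen IX chains COL9A2 and COL9A3 passed the filter. COL9A3 stood at 0.899, 1.09 and 0.713 TPM in shEV and at 0.605, 0.418 and 0.289 TPM in shPAX2, from 7 to 24 reads a library. The groups did not overlap and the change passed narrowly (log2 fold change -0.59 ± 0.20 SE, adjusted p = 0.0394, limma). It was lost when any of shEV replicate 1 (adjusted p = 0.0753), shEV replicate 2 (0.126), shPAX2 replicate 2 (0.109) or shPAX2 replicate 3 (0.131) was left out, and under median-of-ratios rescaling (0.064) and quantile normalization (0.153). COL9A2 stood at 2.7, 2.96 and 2.43 TPM and at 2.65, 1.99 and 1.56 TPM, with overlapping groups and a log2 fold change of -0.33 (95% CI -0.72 to 0.053, adjusted p = 0.145, limma), which was -0.49 (adjusted p = 0.0358) without shPAX2 replicate 1. COL9A1, COL12A1, COL14A1, COL16A1, COL19A1, COL20A1, COL21A1 and COL22A1 were below the filter, and the most any of them had in a library was 11 reads, for COL12A1.

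COL26A1 (chr7:101006156-101202304, plus strand), a short collagen first described in testis and ovary, was the second gene higher past both limits. It stood at 27.8, 25.5 and 26.3 TPM in shEV and at 51.5, 71.4 and 62.7 TPM in shPAX2. The control libraries lay within a narrow band below all the knockdown libraries, among which replicate 1 was lowest. The knockdown mean was 2.33 times the control mean (log2 fold change 1.2 ± 0.11 SE, 95% CI 0.94 to 1.45, adjusted p = 9.48e-05, limma). The nearest tested gene on each side, RABL5 and CUX1, had means in shPAX2 at 112% and 86.3% of the control mean. COL15A1, the short-chain collagens COL8A1 and COL8A2, and the transmembrane collagens COL13A1, COL17A1, COL23A1 and COL25A1 were below the filter, with COL23A1 the highest of them at 0.0669 to 0.443 TPM.

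In all, 23 of the 44 genes were below the filter, COL11A2 on a TPM that is not comparable, and none of them passed 0.443 TPM. Of these, 14 had no more than 3 recovered reads in any library, so a level of up to that many reads cannot be told from 0 there. The 5 genes on chromosome 6 (COL9A1, COL11A2, COL12A1, COL19A1 and COL21A1) were all among the 23. On that chromosome the tested genes as a body were shifted by 0.231 to 0.269 on the log2 scale in the shPAX2 libraries and by -0.264 to -0.242 in the shEV libraries, and no tested collagen gene lies there.

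**Figure D3:**
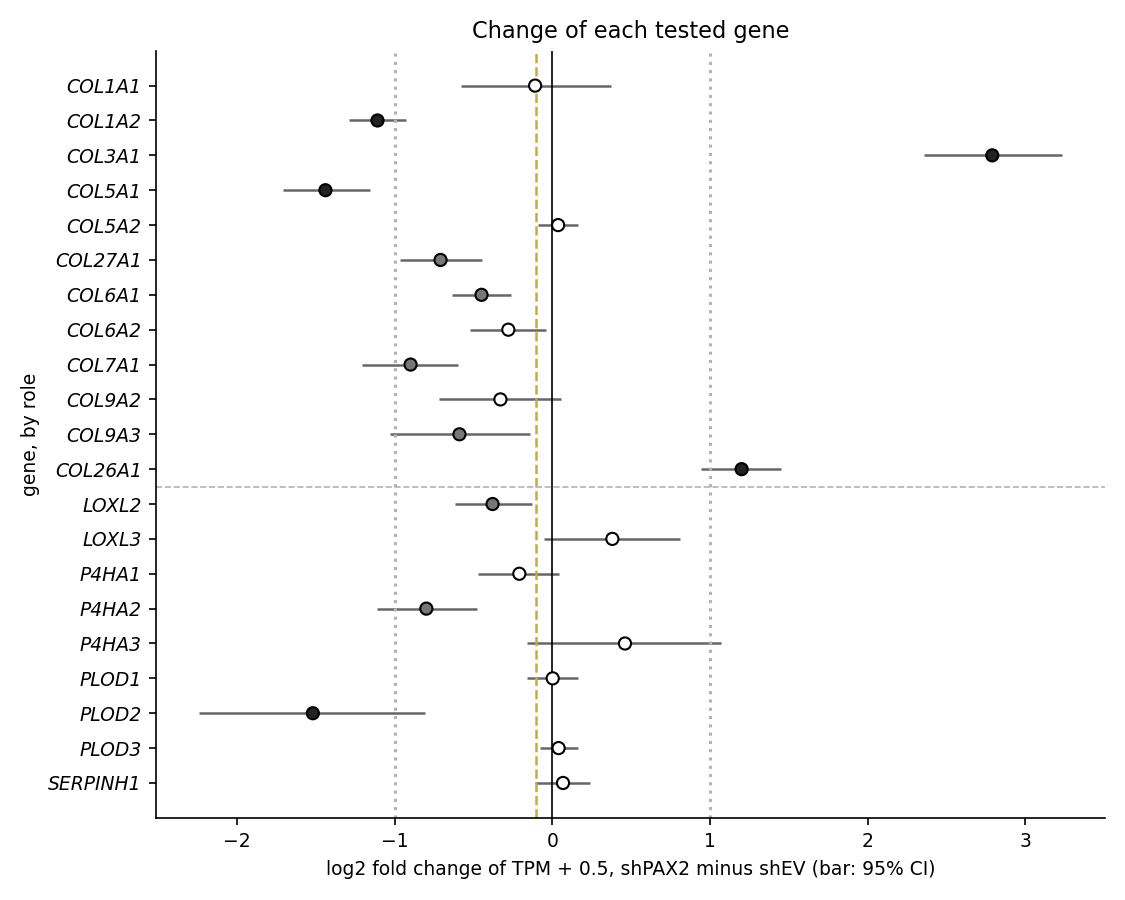
Log2 fold change (shPAX2 minus shEV, on TPM + 0.5) of the 21 tested genes by role, with bars for the 95% CI. Black points passed both limits, grey points the adjusted p alone and white points neither, with dotted lines at -1 and 1 and the dashed yellow line at the median of all genes tested, -0.10. COL3A1 at 2.79 and COL26A1 at 1.2 stand to the right and PLOD2 at -1.52, COL5A1 at -1.44 and COL1A2 at -1.11 to the left.

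Among the modifying enzymes 1 isoenzyme of each hydroxylase family was lower and its relatives did not pass the test. The lysyl hydroxylase PLOD2 (chr3:145752926-145881512, minus strand), which acts on the telopeptides where cross-links form, stood at 33.5, 37.8 and 61.9 TPM in shEV and at 17.8, 14 and 12.4 TPM in shPAX2. The groups did not overlap, and shEV replicate 3 stood well above the other controls. The knockdown mean was 33.2% of the control mean, with a wide interval (log2 fold change -1.52 ± 0.28 SE, 95% CI -2.24 to -0.81, adjusted p = 0.011, limma). Without shEV replicate 3 the change was -1.26 (adjusted p = 0.00172), and without shPAX2 replicate 2 it missed the limit (-1.49, adjusted p = 0.0508).

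PLOD1 and PLOD3, which act mainly on the helical part of the chain, did not pass the test. PLOD1 stood at 152, 169 and 178 TPM in shEV and at 175, 160 and 164 TPM in shPAX2 (log2 fold change 0.0016, 95% CI -0.16 to 0.16, adjusted p = 0.988, limma), and its sign turned negative under quantile normalization (-0.013) and without shEV replicate 1 (-0.061) or shPAX2 replicate 1 (-0.036). PLOD3 stood at 115, 118 and 111 TPM and at 120, 117 and 116 TPM (log2 fold change 0.039, 95% CI -0.082 to 0.16, adjusted p = 0.589, limma). Within a library, PLOD1 was 2.87 to 4.55 times PLOD2 in shEV and 9.84 to 13.1 times in shPAX2.

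The prolyl 4-hydroxylases carry the catalytic α subunits that hydroxylate proline in the chains. P4HA2 stood at 67.6, 69.5 and 95 TPM in shEV and at 48.2, 42.0 and 41.5 TPM in shPAX2, again with shEV replicate 3 the highest (log2 fold change -0.80 ± 0.14 SE, adjusted p = 0.00332, limma). P4HA1 stood at 170, 178 and 221 TPM and at 182, 155 and 151 TPM, with overlapping groups (log2 fold change -0.21, 95% CI -0.47 to 0.043, adjusted p = 0.156, limma). The ratio of P4HA1 to P4HA2 was 2.32 to 2.55 in shEV and 3.65 to 3.77 in shPAX2. P4HA3, on 2 to 24 reads, stood at 0.575, 0.0997 and 0.244 TPM and at 0.317, 0.785 and 0.677 TPM, and its change of 0.46 did not pass the test (adjusted p = 0.203, limma).

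Of the lysyl oxidases, LOX and LOXL1 were each above 0 in a single library, at 0.0121 and 0.0789 TPM. LOXL2, the most abundant of the lysyl oxidase messages analysed here, stood at 35.2, 29.0 and 29.9 TPM in shEV and at 20.5, 26.0 and 25.8 TPM in shPAX2. The groups did not overlap, with shEV replicate 1 the highest and shPAX2 replicate 1 the lowest (log2 fold change -0.38 ± 0.11 SE, adjusted p = 0.0227, limma). The call was lost without shEV replicate 1 (-0.29, adjusted p = 0.067) and under median-of-ratios rescaling (adjusted p = 0.0714) and quantile normalization (0.0647). LOXL3 stood at 2.03, 1.31 and 1.24 TPM and at 1.7, 2.12 and 2.56 TPM (log2 fold change 0.38, 95% CI -0.051 to 0.81, adjusted p = 0.137, limma), and the value was 0.55 (adjusted p = 0.0411) without shEV replicate 1 and 0.64 (adjusted p = 0.033) under quantile normalization.

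Reads of overlapping genes are a limit for 7 of these genes, which have a listed gene on the other strand (among them COL9A3 with TCFL5, P4HA2 with SLC22A4, P4HA3 with PPME1, PLOD3 with ZNHIT1 and LOXL3 with HTRA2), and for LOXL2, which overlaps ENTPD4 on the same strand. The strand setting of the counting is not given in the sources used here, so reads of such pairs cannot be told apart.

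SERPINH1 was the most abundant of the modifying genes and overlapped between the groups. It stood at 549, 529 and 516 TPM in shEV and at 497, 593 and 585 TPM in shPAX2 (log2 fold change 0.067, 95% CI -0.11 to 0.24, adjusted p = 0.509, limma). The lowest of the 6 libraries was shPAX2 replicate 1, and without it the value was 0.15 (adjusted p = 0.0484).

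**Figure D4:**
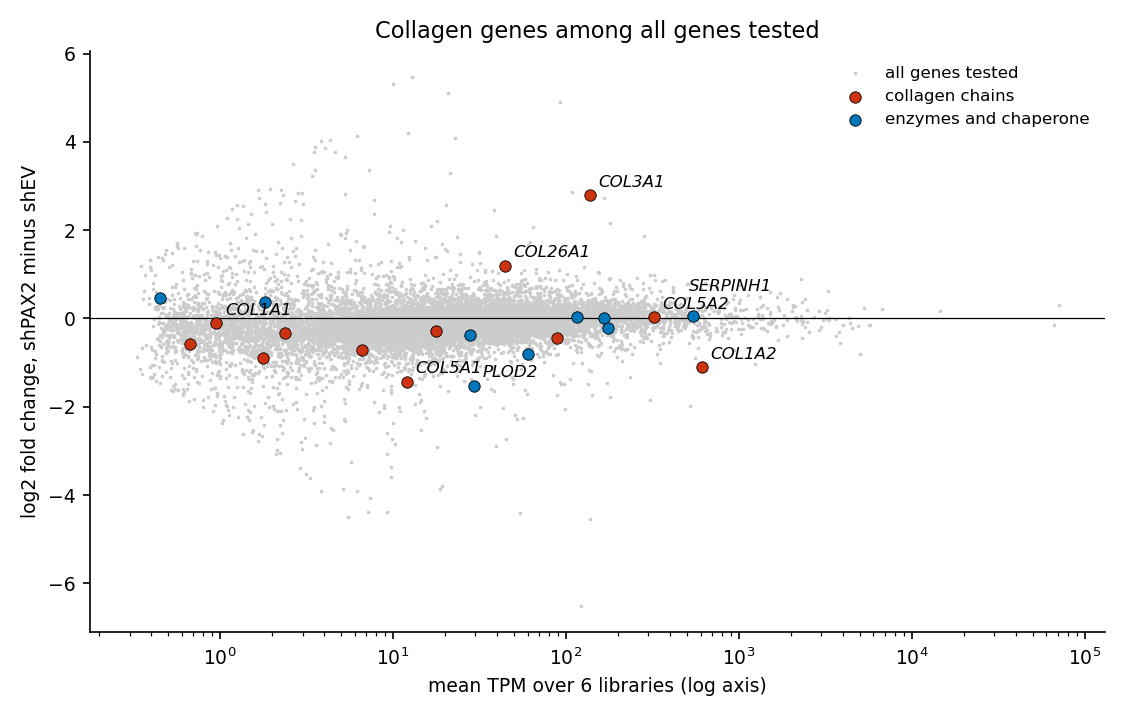
Log2 fold change (shPAX2 minus shEV) against mean TPM over the 6 libraries (log axis) for all 13163 genes tested (grey), with the 12 collagen chains in red and the 9 modifying genes in blue. COL3A1 (2.79) stands above and COL1A2 (-1.11) below the cloud of genes of similar abundance, and COL5A2 and SERPINH1 lie inside it.

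The genes that act with these collagens were read from 4 lists, of 71 genes in all, of which 63 were listed in the table and 43 passed the filter. By the adjusted p, 4 of the 43 were higher and 17 lower, against 12.2% and 30.5% of all genes tested, and the median log2 fold change was -0.16. Under median-of-ratios rescaling 12 were higher and 15 lower, with 2867 higher and 2579 lower among all 13163. The same shares of the whole table are the background for the count of each list, and nothing is read from these counts about a list.

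Procollagen processing, the trimming of the end extensions, had 6 tested genes of which 2 were higher and 3 lower, where 12.2% and 30.5% of all genes tested were. ADAMTS3 and ADAMTS2 both cut the amino end of procollagens. ADAMTS3 stood at 23.4, 21.0 and 20.4 TPM in shEV and at 44.6, 47.3 and 48.4 TPM in shPAX2 (log2 fold change 1.10, adjusted p = 8.81e-06, limma), whereas ADAMTS2 stood at 4.79, 4.51 and 4.59 TPM and at 2.19, 1.68 and 1.67 TPM (log2 fold change -1.14, adjusted p = 0.000184, limma). PCOLCE and PCOLCE2 both enhance the cut at the carboxyl end. PCOLCE stood at 6.55, 6.15 and 6.29 TPM and at 17.3, 13.6 and 13.7 TPM (log2 fold change 1.16, limma), while PCOLCE2 stood at 1.1, 1.39 and 1.47 TPM and was at 0 reads in all shPAX2 libraries, at least 35.0-fold lower when 3 reads are allowed over the knockdown group. BMP1, the protease that makes that cut, was lower by a smaller amount (log2 fold change -0.53, adjusted p = 0.000541, limma). Each of these 5 kept its direction and stayed past the adjusted p under all 16 alternatives, while the size for ADAMTS2 went down to -0.88, short of the limit for a large change.

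Among collagen receptors and uptake genes, 7 were tested, 3 were lower and none was higher, where 30.5% and 12.2% of all genes tested were. ITGA2 and ITGA1, the α subunits of the collagen-binding integrins α2β1 and α1β1, went from 3.08, 4.32 and 5.08 to 0.0578, 0.0281 and 0.0648 TPM and from 1.9, 2.45 and 1.96 to 0.0817, 0.108 and 0.15 TPM (log2 fold changes -3.06 and -2.08, limma), with 3 to 7 reads behind each shPAX2 value. The pseudocount shrinks these values, which ranged from -6.34 to -2.28 for ITGA2 and from -4.19 to -1.48 for ITGA1 over the alternatives, and the knockdown means were 1.21% and 5.37% of the control means. Their shared partner ITGB1 did not pass the test (219 to 229 TPM in shEV, 233 to 248 TPM in shPAX2, adjusted p = 0.191, limma), although it did under median-of-ratios rescaling (log2 fold change 0.21, adjusted p = 0.0123). MRC2, a receptor that takes up collagen for breakdown, went from 22.8, 23.1 and 25.2 to 13.1, 10.7 and 10.6 TPM (log2 fold change -1.02, limma, and -1.12 to -0.87 over the alternatives). DDR2, a receptor tyrosine kinase for fibrillar collagen, overlapped between the groups at 56.3 to 63.2 and 57.7 to 59.7 TPM, and the sign of its change depended on the scaling (-0.010 as reported, 0.10 under median-of-ratios rescaling). DDR1, a tested receptor gene on chromosome 6, did not pass the test (log2 fold change -0.072, adjusted p = 0.519, limma). With the chromosome 6 shift removed its value was -0.57 (adjusted p = 0.00108, limma), and under quantile normalization it was 0.14.

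**Figure D5:**
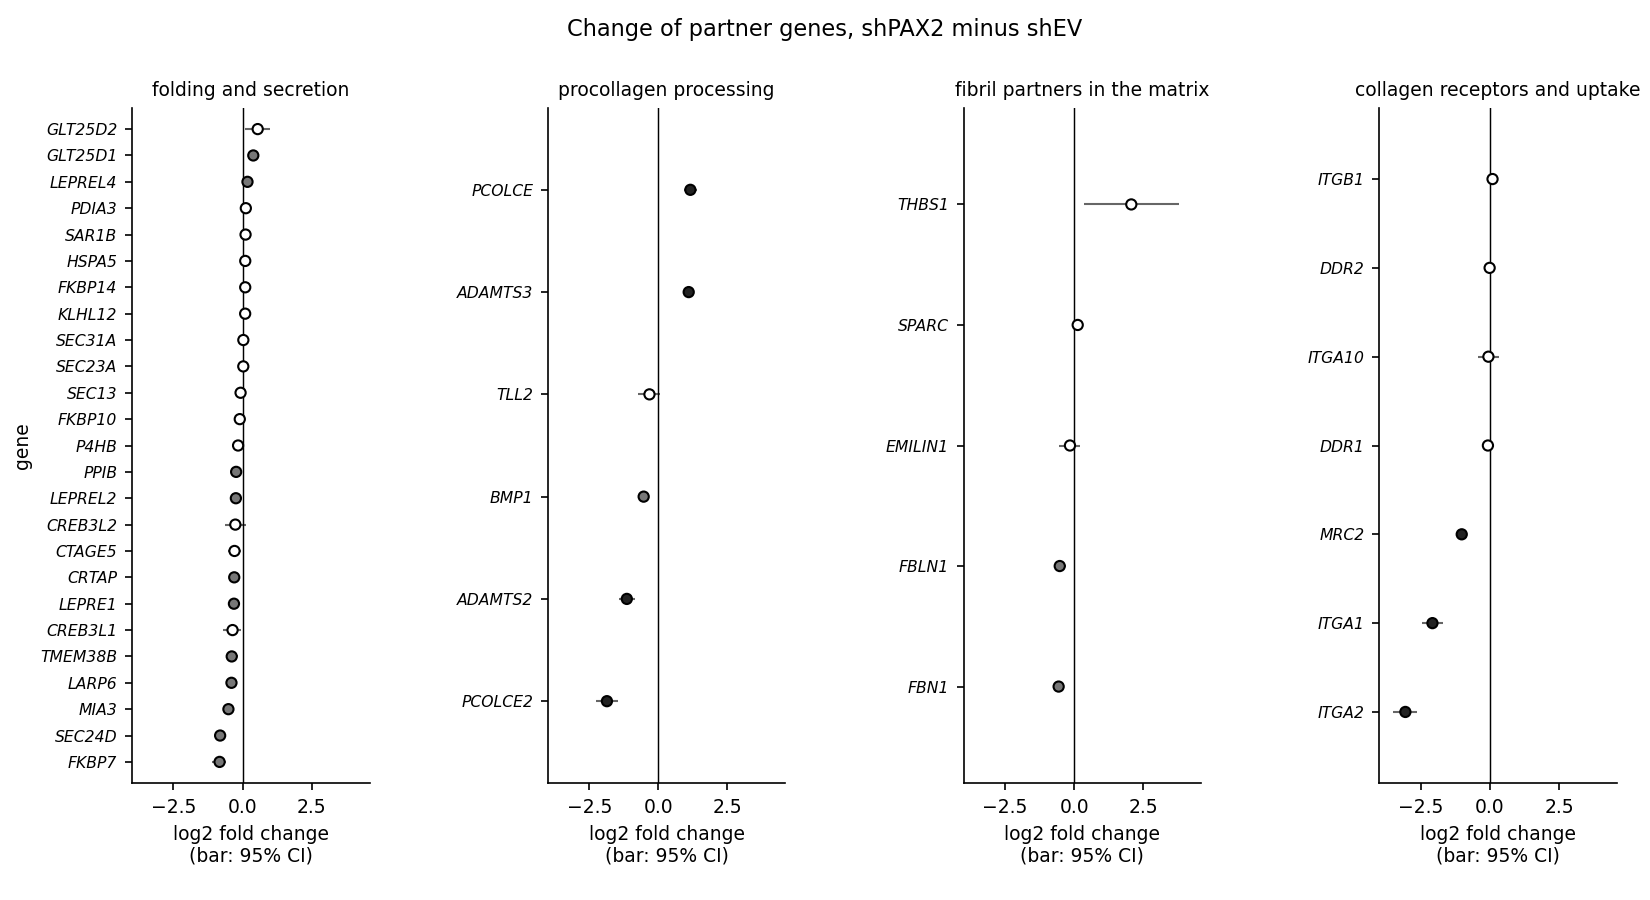
Log2 fold change (shPAX2 minus shEV) of the 43 tested partner genes in 4 lists, with bars for the 95% CI, black points past both limits, grey points past the adjusted p alone and white points past neither. PCOLCE and ADAMTS3 lie to the right of 0 and PCOLCE2, ADAMTS2, ITGA2 and ITGA1 to the left, and the 25 folding and secretion genes lie between -0.83 and 0.55.

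Folding and secretion genes made up the longest list. Of 25 tested, 2 were higher and 9 lower by the adjusted p, where 12.2% and 30.5% of all genes tested were, and none reached a log2 fold change of 1 in either direction. FKBP7, a prolyl isomerase of the endoplasmic reticulum, had a log2 fold change of -0.83 and SEC24D, a coat protein of the vesicles that carry procollagen, of -0.81. MIA3 (TANGO1), which loads procollagen into those vesicles, had -0.51, and LARP6, a protein that binds the messages of type I collagen chains, had -0.40. GLT25D1, a collagen galactosyltransferase, was higher (log2 fold change 0.39, adjusted p = 0.00265, limma). P4HB, the β subunit shared by the prolyl 4-hydroxylases, did not pass the test (-0.16, adjusted p = 0.107, limma), though it did without shPAX2 replicate 1 (adjusted p = 0.0235).

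Of 25 matrix partners of the fibrils, 18 were listed and only 5 passed the filter, of which 2 were lower and none higher by the adjusted p, where 30.5% and 12.2% of all genes tested were. FBN1 (fibrillin-1) went from 51.1, 48.7 and 48.7 to 32.2, 33.7 and 34.7 TPM (log2 fold change -0.56, adjusted p = 0.000118, limma), and FBLN1 (fibulin-1) had a log2 fold change of -0.52 (adjusted p = 0.003, limma). SPARC, a collagen-binding secreted protein, did not pass the test (25 to 25.6 TPM in shEV, 25.6 to 29.4 in shPAX2), but did under median-of-ratios rescaling, under quantile normalization and without shPAX2 replicate 1. THBS1 stood at 30.3, 19.8 and 16.3 TPM in shEV and at 37.9, 139 and 146 TPM in shPAX2, with replicate 1 far below the other knockdown libraries, and its change missed the limit (log2 fold change 2.07, adjusted p = 0.0603, limma). Without shPAX2 replicate 1 it was 2.71 (adjusted p = 0.00536), and it also passed under median-of-ratios rescaling (0.0481), without the filter (0.0484) and without trend or robust moderation (0.0258). FN1 (fibronectin) was at or below 0.827 TPM in every library, and the small proteoglycan BGN had at most 3 reads in any.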

How the data were processed

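RNA was sequenced from 6 AN3CA libraries (TruSeq Stranded Total RNA). The authors deposited 1 table of TPM values per gene. Per the labels, bcl2fastq, STAR, Subread featureCounts, edgeR and the hg19 genome were used. Their versions and the strand setting are not given in the sources used here. Whole reads that fit the TPM ratios were recovered for 100% of genes (largest relative deviation 7.15e-14, within a tolerance of 1e-09). They are the smallest that fit, so a factor shared by all counts of a gene is lost. A gene above 0 in a single library is given a single read by construction. The deviation therefore cannot show that the reads of sparse genes are exact. TPM values were tested as log2(TPM + 0.5) with limma 3.58.1 (R 4.3.3, trend and robust moderation) over the 13163 genes with at least 0.5 TPM in 3 or more libraries, adjusted by Benjamini-Hochberg. The method was tested on simulated data. Coordinates come from GENCODE 44 lifted to GRCh37, which matched 95.1% of genes. The smallest exact permutation p of 3 against 3 libraries is 0.1, so no such test was used. Alternatives were other pseudocounts, filters, scalings and moderation, voom on the recovered reads, a replicate block, removal of the chromosome 6 shift and leaving out each library. The genes and the lists were chosen with earlier results of these data known. All 44 genes were named, and from each partner list at most the 5 largest changes past the adjusted p. P4HB, ITGB1, DDR1, DDR2, SPARC, THBS1, FN1, BGN, the markers' levels and the genomic neighbours were added after their values were seen. The floor for a gene at 0 was set at 3 reads and covers counting error only.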

Additional observations from a re-analysis of the deposited data

How the results depend on the processing

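The count of collagen genes past both limits was 5 and stayed between 4 and 6 under the 16 alternatives, and the count past the adjusted p was 11, with a range of 8 to 14. The partner genes gave 21, with a range of 20 to 27. PAX2 passed under every one of the 16, with a log2 fold change between -1.87 and -1.2. Of 333 values for the 21 tested genes, 308 kept their direction and side of the limit, 13 lost a call and 6 gained one. COL3A1, COL26A1, COL1A2, COL5A1, COL7A1, COL27A1, COL6A1 and P4HA2 stayed past the adjusted p under all 16, though COL1A2 fell short of the limit for a large change under median-of-ratios rescaling (-0.99). The 6 values that changed sign belonged to genes near 0: under quantile normalization COL1A1 (0.13), COL5A2 (-0.012) and PLOD1 (-0.013), and when single libraries were left out COL1A1, which ranged from -0.27 to 0.10 and was positive when shEV replicate 1 was out, and PLOD1, which ranged from -0.061 to 0.051 and was negative when shEV replicate 1 (-0.061) or shPAX2 replicate 1 (-0.036) was out. The causes were not tested. Replicate numbers did not pair the libraries (correlations of deviations -0.0523, 0.0815 and 0.0014). With a replicate block the counts were 4 past both limits, 8 past the adjusted p and 21 partner genes, PAX2 was at -1.47, and PLOD2 (adjusted p = 0.0565), COL9A3 (0.0553) and LOXL2 (0.0757) were no longer called. COL9A3, COL1A1 and P4HA3 could not be fitted at a filter of 1 TPM. Depth limits the genes below the filter other than COL11A2, which had 29 to 88 reads a library. Of the 23 below the filter, 14 had no more than 3 recovered reads in any library.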

Other observations

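Rows of 4 microRNA genes lie inside these collagen genes on the same strand: MIR1245A in COL3A1, MIR3129 in COL5A2, MIR711 in COL7A1 and MIR455 in COL27A1. Their reads were few. MIR1245A had 0 reads in each shEV library and stood at 3.79, 2.15 and 0 TPM in shPAX2. Its shPAX2 reads are known only up to a shared factor. MIR3129 had 0, 4 and 0 in shEV and 1, 3 and 1 in shPAX2, MIR711 had 1, 5 and 5 against 0, 7 and 0, and MIR455 had a single read, in shEV replicate 3. These counts are too low to compare at this depth.

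On one side of PLOD2, the nearest tested genes were PLSCR1, at 23.3, 22.0 and 21.0 TPM in shEV and 12, 11.1 and 11.1 TPM in shPAX2, and PLSCR4, at 0.611, 0.804 and 0.575 TPM in shEV and no more than 0.0406 TPM in shPAX2. PLSCR4 lies 28.6 kb and PLSCR1 351 kb from PLOD2. In both, as in PLOD2, every shPAX2 library was below every shEV library. On the other side, C3orf58 (1985 kb away) overlapped between the groups (log2 fold change 0.055, adjusted p = 0.724, limma) and SLC9A9 (2186 kb away) had a log2 fold change of -0.49 (adjusted p = 0.0386, limma). The part of this stretch of chromosome 3 in the PLOD2 result was not tested.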
